A study of Homo sapiens with 8 samples.

Results

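The genes described here encode 10 receptor tyrosine kinases, namely MET, MST1R, IGF1R, INSR, FGFR1, FGFR2, FGFR3, FGFR4, AXL and DDR1. They were found on the arrays as the probes whose RefSeq accession belongs to 1 of these genes, which gave 14 probes, and all 10 genes were among the 28876 genes tested. LNCaP, an established line from a metastasis of prostate cancer, had been transfected with 30 nM siRNA against GATA2 (siGATA2) or with 30 nM scrambled siRNA (siControl), and RNA was taken 72 h later in both groups. Each group had 4 replicates, each hybridized to its own one-colour Agilent array, so the precision of every value is limited by 4 arrays per group. The source labels number the replicates without saying whether they were separate cultures. The fits treat the 4 arrays of a group as independent. The question addressed is how the RNA of these receptors differed between the arrays labelled siGATA2 and those labelled siControl.

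Receptor tyrosine kinases are single-span membrane proteins that are activated when a ligand brings receptor chains together and the intracellular kinase parts phosphorylate each other. MET is the receptor of hepatocyte growth factor and MST1R (RON) that of the related macrophage-stimulating protein. IGF1R and INSR are the closely related receptors of insulin-like growth factor and insulin, and the FGFR proteins bind fibroblast growth factors. AXL is bound by GAS6, while DDR1 is unusual in being activated by collagen. In prostate cancer MET is known as a gene that the androgen receptor represses, and INSR and IGF1R can form hybrid receptors.

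The promoters of 4 of the receptors are shown because MET and MST1R, and likewise IGF1R and INSR, are pairs of closely related receptors, and because each of these genes has 1 start in the table used. The sequences are those of RefSeq on GRCh38.p14, from 250 bases before to 50 bases after the start, written 5′ to 3′ on the strand of the gene. Capitals mark GATA letters (AGATAA as one form, AGATAG as another, then TGATAA and finally TGATAG), the E-box motif CACGTG and also the GC box motif GGGCGG, each on either strand, with overlapping boxes joined. MET lies at chr7:116671946-116672245 on the plus strand, MST1R at chr3:49903824-49904123 on the minus strand, IGF1R at chr15:98648289-98648588 on the plus strand and INSR at chr19:7294365-7294664 on the minus strand.
MET: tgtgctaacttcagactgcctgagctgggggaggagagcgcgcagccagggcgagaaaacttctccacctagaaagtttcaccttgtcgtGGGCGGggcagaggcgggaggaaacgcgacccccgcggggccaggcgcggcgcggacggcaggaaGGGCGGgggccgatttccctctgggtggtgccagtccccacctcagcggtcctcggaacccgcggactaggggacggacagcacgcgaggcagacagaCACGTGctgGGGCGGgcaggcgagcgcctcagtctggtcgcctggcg
MST1R: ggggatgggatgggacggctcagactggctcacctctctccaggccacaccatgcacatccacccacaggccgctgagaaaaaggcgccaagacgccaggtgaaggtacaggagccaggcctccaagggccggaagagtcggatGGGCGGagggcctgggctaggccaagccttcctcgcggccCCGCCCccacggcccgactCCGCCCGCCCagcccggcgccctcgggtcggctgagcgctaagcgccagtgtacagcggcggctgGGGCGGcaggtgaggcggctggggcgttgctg
IGF1R: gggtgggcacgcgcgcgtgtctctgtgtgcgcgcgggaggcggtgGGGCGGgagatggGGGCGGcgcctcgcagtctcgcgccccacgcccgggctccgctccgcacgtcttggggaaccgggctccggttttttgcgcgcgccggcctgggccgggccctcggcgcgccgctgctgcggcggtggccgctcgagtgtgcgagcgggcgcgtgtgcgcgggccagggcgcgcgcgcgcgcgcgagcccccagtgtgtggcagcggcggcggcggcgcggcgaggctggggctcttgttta
INSR: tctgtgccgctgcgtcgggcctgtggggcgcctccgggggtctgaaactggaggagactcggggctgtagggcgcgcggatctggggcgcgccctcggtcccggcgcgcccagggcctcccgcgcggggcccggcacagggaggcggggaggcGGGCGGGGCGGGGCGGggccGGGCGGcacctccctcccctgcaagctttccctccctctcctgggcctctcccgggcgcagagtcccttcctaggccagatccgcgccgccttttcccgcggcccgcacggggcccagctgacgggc
None of these 4 windows holds the GATA letters, which are present in 25.0% of the 35116 promoters of the same length. The GC box is present in all 4 and in 45% of all promoters, and the E-box is present in MET and in 7.26% of all promoters. Such matches describe letters and not bound sites. FGFR1 was left out of the promoter count. Over the 9 receptors used, 3 of 22 promoters hold the GATA letters, 13 of 22 the GC box and 2 of 22 the E-box. Some of these windows overlap, and overlapping DDR1 windows share a GC box. The GC content of the MET window is 69.3%, against a median of 58.7% over all promoters.

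Before the results, some facts of the arrays bear on every value. Probes well above background made up 81.1 to 87.2% of 42405 non-control probes on siGATA2 arrays, 82.1 and 80.2% on siControl arrays 2 and 4, and only 67.2 and 57.3% on siControl arrays 1 and 3. GATA2 itself was tested by probe A_33_P3550894 only. Its mean log2 signal was 12.03 ± 0.631 (SD, n = 4) on siGATA2 arrays and 11.35 ± 0.275 (SD, n = 4) on siControl arrays. On this probe the group labels were thus not borne out by a fall of their target. The difference was 0.68 on the log2 scale with a standard error of 0.313 (limma, adjusted p = 0.155), and every direction below rests on the labels. GATA2 was called higher in 2 of 24 alternatives, at 1.1 with array weights and 0.47 with the title letters as a block, and was at 0.03 with spike-in scaling. All 8 of 8 luminal prostate markers were well above background on every array, and the mean log2 signal of the list was 14.14 to 14.69 on siGATA2 and 15.01 to 15.07 on siControl arrays. Of 3 basal markers none was well above background on all arrays. Of 6 stromal markers 2 were, with mean log2 signals of the list of 5.12 to 5.68 on siGATA2 and 5.93 to 6.29 on siControl arrays. Among the 5 stromal markers tested PDGFRB alone was called, at -2.83, while DES was at 0.09, MYH11 at 0.69, COL1A1 at -0.13 and COL1A2 at -0.21. Of 4 endothelial and immune markers 2 were as well, and the mean log2 signal of that list was 7.22 to 7.62 on siGATA2 and 6.74 to 6.85 on siControl arrays. The part of these lists in the results was not tested. All arrays were labelled LNCaP, a single cell line, so the lists describe marker genes and not shares of cell types. In bulk RNA, fewer cells with a transcript and less of it per cell cannot be told apart.

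Of the 10 receptor genes, 2 were lower on siGATA2 arrays, 3 were higher and 5 did not pass an adjusted p of 0.05 in the limma fit across all genes. MET was by far the largest change, 5.85-fold lower. DDR1 was 2.53-fold higher, INSR 1.81-fold higher and MST1R 1.56-fold higher, while FGFR4 was 1.41-fold lower. IGF1R, FGFR1, FGFR2, FGFR3 and AXL did not pass. Among all genes tested with the same fit, 14.1% were lower and 12.3% higher, or 26.4% called in all, and the median log2 fold change was 0.09 against 0.0038 for the 10 receptors. With a fold of at least 2 required as well, MET and DDR1 passed, beside 7.09% of all genes lower and 4.51% higher. The groups did not overlap in 5 of the 10 receptors, and in 32.5% of all genes.

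**Figure D1:**
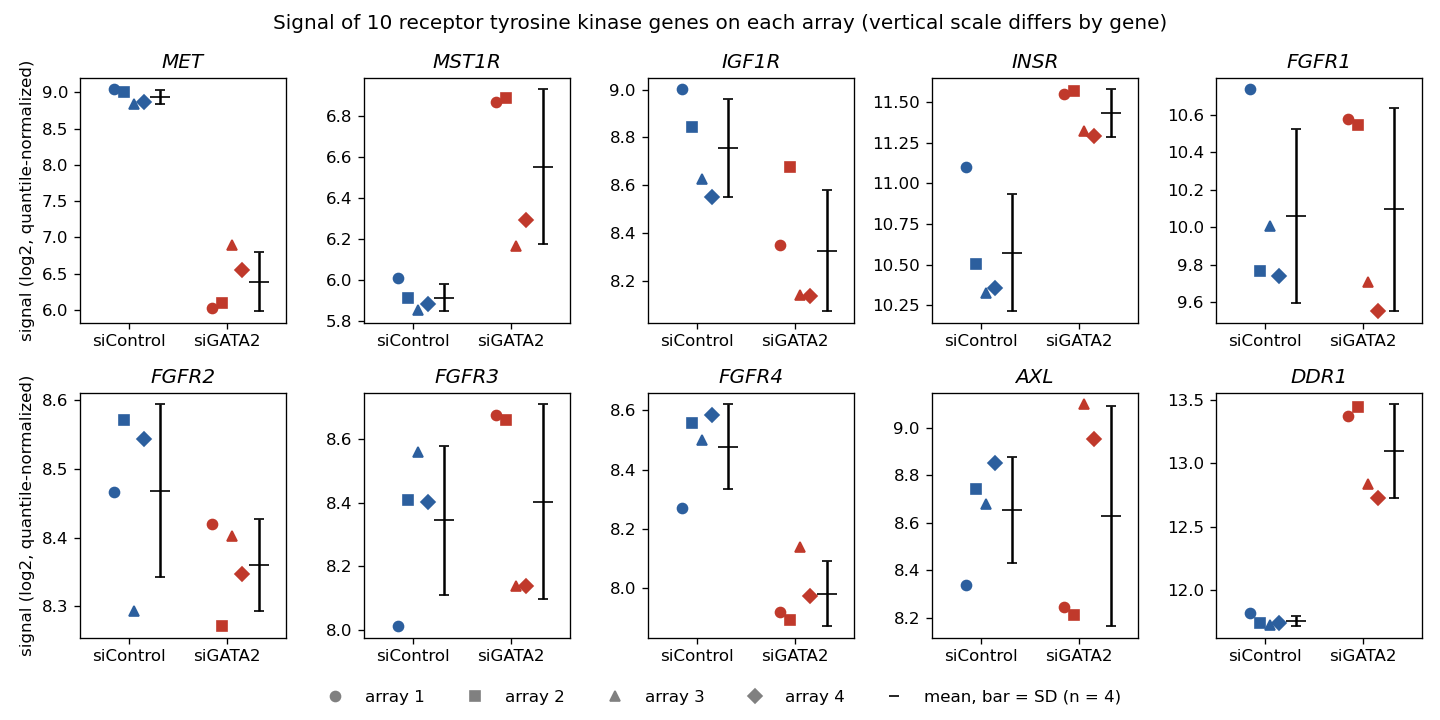
Quantile-normalized log2 signal (vertical axis, scale differing by gene) of the 10 receptor genes on each siControl array (blue) and siGATA2 array (red), with marker shape giving the array number and the black bar the mean ± SD of 4 arrays. MET, FGFR4, MST1R, INSR and DDR1 show no overlap between the groups, and in MST1R, FGFR1, FGFR3, AXL and DDR1 siGATA2 arrays 1 and 2 lie apart from arrays 3 and 4.

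MET was measured by probe A_23_P359245, printed 10 times on each array and well above background on all 8. Its log2 signal was 6.02, 6.09, 6.90 and 6.54 on siGATA2 arrays 1 to 4, against 9.04, 9.01, 8.84 and 8.87 on siControl arrays 1 to 4. All 4 siGATA2 values lay far below all 4 siControl values, and arrays 1 and 2 were lowest. On siControl arrays 1 and 3, 2 of its 10 spots were marked as outliers and left out. The mean was 6.39 ± 0.410 (SD, n = 4) against 8.94 ± 0.0998 (SD, n = 4), a log2 fold change of -2.55 with a standard error of 0.202 (limma, adjusted p = 9.14e-05). This change was larger in size than that of 98.8% of all genes. An exact two-sided permutation test gave 0.0286, the smallest p that 4 arrays against 4 allow. MET is among the genes of a co-expression module that the study formed partly on these arrays, so its fall is not independent of that choice. With normexp background correction, whose offset shrinks changes of dim probes by construction, the log2 fold change of MET was -1.85, which moves the fold by over 1.5 times.

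MST1R, the closest relative of MET, went the other way. Its log2 signal was 6.87, 6.89, 6.17 and 6.29 on siGATA2 arrays 1 to 4 and 6.01, 5.91, 5.85 and 5.88 on siControl arrays 1 to 4. The groups did not overlap, but arrays 3 and 4 of siGATA2 stood only a little above siControl, and on siControl array 3 its spots were not well above background. Its change was 0.64 on the log2 scale with a standard error of 0.187 (limma, adjusted p = 0.0387). This call was lost under 13 of 24 alternative settings, among them the removal of siGATA2 array 1 or 2 or of any 1 siControl array, with an adjusted p between 0.0536 and 0.0941 in those 6 cases. The changes of MST1R and MET differed by 3.19 on the log2 scale (standard error 0.392), which is given as a description, since the pair was chosen after the values were seen.

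INSR, the insulin receptor, was higher with siGATA2. It had a log2 signal of 11.55, 11.57, 11.32 and 11.29 on siGATA2 arrays 1 to 4 and of 11.10, 10.51, 10.33 and 10.36 on siControl arrays 1 to 4. Every siGATA2 array was above every siControl array, with siControl array 1 nearest to them. Its mean of 11.43 ± 0.146 (SD, n = 4) against 10.57 ± 0.361 (SD, n = 4) gave a log2 fold change of 0.86 with a standard error of 0.189 (limma, adjusted p = 0.0122).

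IGF1R gave 8.35, 8.68, 8.14 and 8.14 on siGATA2 arrays 1 to 4 and 9.0, 8.84, 8.63 and 8.55 on siControl arrays 1 to 4, on the log2 scale. The groups overlapped through siGATA2 array 2, which lay above siControl arrays 3 and 4. At -0.43, with a standard error of 0.165 (limma, adjusted p = 0.0975), its log2 fold change was not called, with a 95% interval of -0.81 to -0.05 before adjustment. It was called lower without siGATA2 array 2, at -0.55 (adjusted p = 0.0441 from limma). The difference between the changes of INSR and IGF1R was 1.29 on the log2 scale (standard error 0.123), a description as well, since this pair too was chosen after the values were seen.

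DDR1, the collagen receptor, rose most. The log2 signal of its brighter probe, A_23_P93311, was 13.38, 13.45, 12.84 and 12.72 on siGATA2 arrays 1 to 4, and 11.82, 11.74, 11.73 and 11.74 on siControl arrays 1 to 4. The siControl values were almost equal, while siGATA2 arrays 1 and 2 were higher than arrays 3 and 4. Its change was 1.34 on the log2 scale with a standard error of 0.182 (limma, adjusted p = 0.00117). Its dimmer probe, A_33_P3264163, was well above background on 4 of 4 siGATA2 arrays and 2 of 4 siControl arrays. That probe gave 6.73, 6.66, 6.93 and 6.96 on siGATA2 arrays 1 to 4 and 5.11, 5.94, 5.55 and 5.83 on siControl arrays 1 to 4. Here too the groups were apart, although siGATA2 arrays 3 and 4 were the higher ones. In the fit over 35546 probes, of which 14.4% were lower and 12.5% higher, it was called higher at 1.21 (standard error 0.195, adjusted p = 0.00267 from limma).

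Among the fibroblast growth factor receptors, FGFR4 alone was called, and whether its change differed from those of the other FGFR genes was not tested. FGFR4, which binds FGF19 together with the co-receptor KLB, had a log2 signal of 7.92, 7.89, 8.14 and 7.97 on siGATA2 arrays 1 to 4 and 8.27, 8.56, 8.50 and 8.58 on siControl arrays 1 to 4. All siGATA2 values were below all siControl values, with siControl array 1 the nearest. The change was -0.50 on the log2 scale with a standard error of 0.114 (limma, adjusted p = 0.0145), and without siControl array 4 the adjusted p was 0.0508.

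FGFR1, on the log2 scale, was 10.58, 10.55, 9.71 and 9.55 on siGATA2 arrays 1 to 4 and 10.74, 9.77, 10.00 and 9.74 on siControl arrays 1 to 4. Both groups held high and low arrays, and the log2 fold change of 0.03 had a 95% interval of -0.71 to 0.78. Its dimmer probe, for another transcript, gave 0.41 (adjusted p = 0.104 from limma over all probes). FGFR2 lay between 8.27 and 8.57 on all 8 arrays, with a log2 fold change of -0.11 (95% interval -0.35 to 0.13). FGFR3 lay between 8.01 and 8.68, with 0.06 (95% interval -0.38 to 0.49). Their dimmer probes, each well above background on 4 of 4 siGATA2 and 2 of 4 siControl arrays, gave -0.01 for FGFR2 and -0.21 for FGFR3, with adjusted p = 0.985 and 0.415 from limma. In the 4 genes with 2 probes the changes of the probes differed by -0.38 for FGFR1, -0.10 for FGFR2, 0.27 for FGFR3 and 0.13 for DDR1 on the log2 scale. None of these differences passed the exact permutation test, with p from 0.286 to 0.800 and an adjusted p of 0.800 for each.

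AXL had a log2 signal of 8.24, 8.21, 9.10 and 8.95 on siGATA2 arrays 1 to 4 and 8.34, 8.74, 8.68 and 8.85 on siControl arrays 1 to 4. The siGATA2 arrays held both the lowest and the highest values. A log2 fold change of -0.03 resulted, with a 95% interval of -0.58 to 0.53. Changes of up to about that size in either direction are thus not excluded by this fit.

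**Figure D2:**
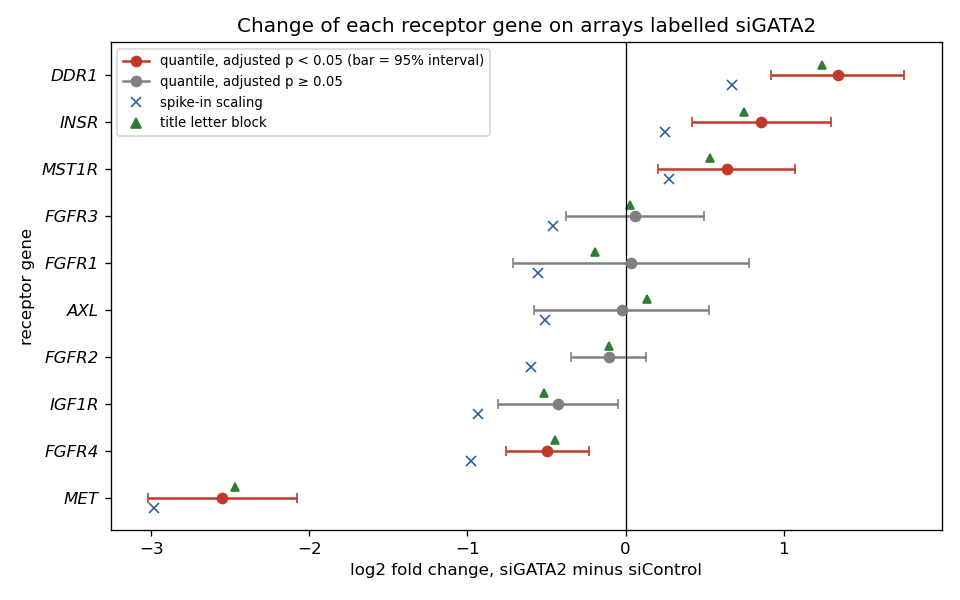
Log2 fold change (horizontal axis, siGATA2 minus siControl) of each receptor gene after quantile normalization, with its 95% interval from limma (circles, red where the adjusted p was under 0.05), after spike-in scaling (crosses) and with the title letters as a block (triangles). MET lies at -2.55 and DDR1 at 1.34, and the crosses lie to the left of the circles throughout.

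Within siGATA2, arrays 1 and 2, whose titles carry the letters A and B, stood apart from arrays 3 and 4, with the letters E and F. The meaning of the letters is not given in the labels. In 9 of the 10 receptors the values of arrays 1 and 2 did not overlap those of arrays 3 and 4, as was the case for 79.3% of all genes tested. The mean of arrays 1 and 2 minus that of arrays 3 and 4 was 0.93 on the log2 scale for FGFR1, 0.65 for MST1R, 0.63 for DDR1, 0.53 for FGFR3, -0.66 for MET and -0.80 for AXL. SiControl array 1 also carries a letter of the first set, B. Among the arrays lettered A or B the difference between siGATA2 and siControl was -2.98 for MET, 1.59 for DDR1, 0.87 for MST1R, 0.45 for INSR, -0.36 for FGFR4 and -0.49 for IGF1R, on the log2 scale with 1 siControl array. Among those lettered D to G it was -2.18 for MET, 1.05 for DDR1, 0.35 for MST1R, 0.91 for INSR, -0.49 for FGFR4 and -0.53 for IGF1R. These 6 genes thus kept their direction in both sets of letters. The brighter probe of FGFR1 gave -0.17 and -0.21 in the sets, beside a pooled change of 0.03. Its dimmer probe went the other way, at 0.84 and 0.26. AXL changed sign, from -0.11 to 0.27. FGFR3 did so as well, from 0.66 to -0.32. With the letters as a block, a setting chosen after the values were seen, IGF1R was called lower at -0.52 (adjusted p = 0.00684 from limma), while FGFR1 was not called at -0.20 (adjusted p = 0.106 from limma).

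**Figure D3:**
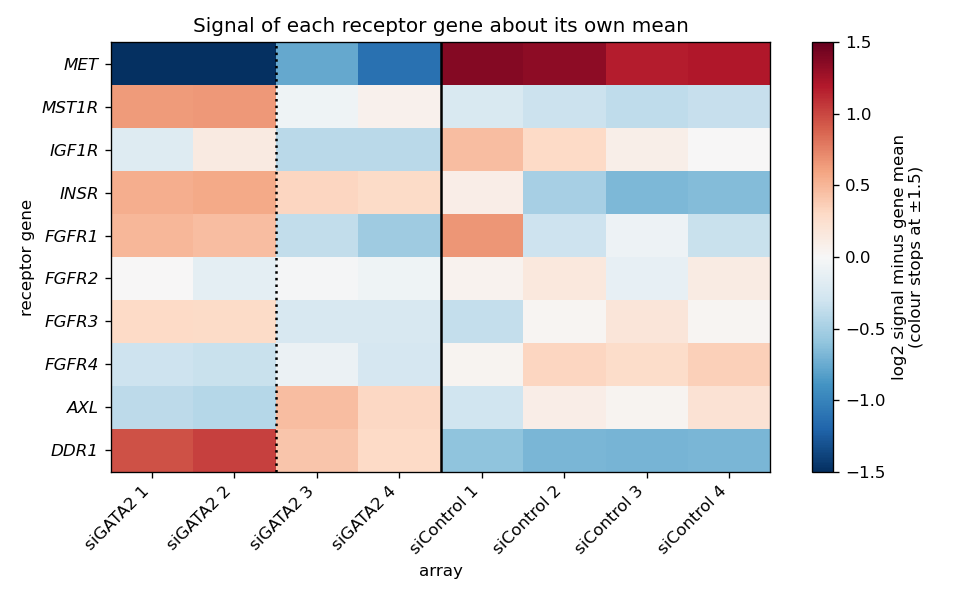
Log2 signal of each receptor gene (rows) on each array (columns) as the distance from the mean of that gene over the 8 arrays, from blue (below) to red (above), with the colour stopping at 1.5. MET and DDR1 change colour at the solid line between the groups, and FGFR1 and AXL change at the dotted line between siGATA2 arrays 2 and 3.

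All arrays lay on 1 slide, with siGATA2 arrays 1 to 3 and siControl array 4 in 1 row and the others in row 2. Within rows 1 and 2 the log2 difference was -2.53 and -2.42 for MET, 1.48 and 0.96 for DDR1, 1.12 and 0.64 for INSR, 0.76 and 0.37 for MST1R, -0.60 and -0.47 for FGFR4 and -0.16 and -0.69 for IGF1R. Each of these genes kept its sign in both rows, as did the brighter probe of FGFR2, at -0.18 and -0.10. The brighter probes of FGFR1 and FGFR3 changed sign, from 0.54 to -0.62 and from 0.09 to -0.19, while their dimmer probes did not. AXL changed sign as well, from -0.33 to 0.37. Row 1 held 1 siControl array and row 2 held 1 siGATA2 array, so each difference rests on 1 array on 1 side. With row as a block the calls of MET, DDR1, INSR and FGFR4 held and that of MST1R was lost, at an adjusted p of 0.149 from limma.

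Scaling to 7 E1A spike-in probes in place of quantile normalization moved the median change over all genes to -0.43 on the log2 scale. Only MET was then called, at -2.98 (adjusted p = 0.00118 from limma), and DDR1 was 0.67 (adjusted p = 0.524 from limma). Relative to that median, MET was -2.55, FGFR4 -0.55, IGF1R -0.50, INSR 0.68, MST1R 0.71 and DDR1 1.1. The mean log2 spike-in signal was 11.13 on siControl array 1, while the remaining 7 arrays gave 13.45 to 13.83. Without that array and with the same scaling, MET was -2.51 (adjusted p = 0.000222 from limma), DDR1 was 1.07 (adjusted p = 0.0102 from limma) and INSR 0.82 (adjusted p = 0.0224 from limma). MST1R and FGFR4 were not called.

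The genes whose signal followed that of MET most closely over the 8 arrays, each gene taken about its own mean, were LGI2, SLC36A1 and PAX1. Their mean absolute distance from MET was 0.126, 0.145 and 0.157 on the log2 scale. The 13282 genes compared all had a symbol and were well above background on every array. SLC36A1 is a lysosomal amino acid transporter and PAX1 a paired box transcription factor. The log2 fold changes were -2.52 for LGI2, -2.48 for SLC36A1 and -2.79 for PAX1. Since genes were picked by their values on the same arrays, changes near that of the receptor follow from the choice. This holds for MET and for IGF1R alike. For IGF1R the nearest genes were TMEM39A, ZMPSTE24 and FBXL18, at distances of 0.0727, 0.0868 and 0.0897. ZMPSTE24, a metalloprotease that matures lamin A, was called lower at -0.50 (adjusted p = 0.0217 from limma), and TMEM39A and FBXL18 were not called at -0.29 and -0.35.

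Beside the 10 genes, 48 further human receptor tyrosine kinases were listed and 40 of them passed the filter on dim probes. Of these 6 were lower, 9 higher and 25 not called, or 37.5% called beside 26.4% of all genes, with a median log2 fold change of 0.04 beside 0.09 over all genes. PDGFRB, the receptor of platelet-derived growth factor and a stromal marker, was lower at -2.83 (standard error 0.356, adjusted p = 0.000803 from limma), with its probe well above background on 2 of 4 siGATA2 arrays. With normexp background correction the log2 fold change of PDGFRB was -0.94, so the size of its fall is uncertain. TYRO3, a relative of AXL, was lower at -1.09, and ROR1 at -0.78, although the mean over the probes of ROR1 gave 0.08. ERBB2 was higher at 1.91 (standard error 0.273, adjusted p = 0.00149 from limma). The ephrin receptors EPHA2 and EPHA6 were higher at 1.65 and 1.18, the probe of EPHA2 passing the background flag on 3 of 4 siControl arrays.

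Ligands of the 10 receptors numbered 32, of which 23 passed the filter. HGF, the ligand of MET, was removed by it. Of those tested 2 were lower, 5 higher and 16 not called, with a median log2 fold change of 0.14. The 30.4% called lay near the 26.4% of all genes. IGF2, which binds both IGF1R and INSR, was 7.77 ± 0.331 (SD, n = 4) in siControl and 10.07 ± 0.359 (SD, n = 4) in siGATA2 on the log2 scale, a change of 2.31 with a standard error of 0.229 (limma, adjusted p = 0.000245). With the mean over its probes IGF2 was at 1.19 and still called. FGF22 was higher at 0.99 and COL5A1, a fibrillar collagen chain, at 0.90, or 1.61 with the mean over its probes. FGF21 and FGF9 were lower at -0.82 and -0.55. The probes of FGF21, FGF9 and FGF22 passed the background flag on 3 of 4 siControl arrays. MST1, the ligand of MST1R, was not called at 1.78 (standard error 0.764, adjusted p = 0.131 from limma) and was named after its values were seen.

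Co-receptors, proteases and protease inhibitors around these receptors numbered 20, all tested, with 4 lower, 7 higher and a median log2 fold change of 0.33. Called members made up 55% of this list and 26.4% of all genes, whose median was 0.09. The median log2 signal was 11.03 in this list and 8.31 over all genes, so the shares compared are not matched for signal. SPINT1, an inhibitor of the proteases that activate hepatocyte growth factor, rose 4.08-fold, or by 2.03 on the log2 scale with a standard error of 0.0900 (limma, adjusted p = 1.39e-05). Its relative SPINT2, named after its values were seen, was higher at 0.87. The laminin receptor subunits diverged, with ITGB4 higher at 2.06 and ITGA6 lower at -1.30. ADAM10, a sheddase that cleaves receptor ectodomains, was higher at 1.48. FURIN, the convertase that cleaves the precursors of MET, INSR and IGF1R, was lower at -1.19, and the heparan sulfate proteoglycan SDC1 at -0.91.

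Adaptors and signalling proteins downstream numbered 33, of which 31 were tested, with 5 lower, 9 higher and 17 not called, and a median log2 fold change of 0.20. Of this list 45.2% were called, beside 26.4% of all genes. Its median log2 signal, 10.49, was again above the 8.31 of all genes. GRB14, which inhibits the insulin receptor kinase, was lower at -1.44 (standard error 0.113, adjusted p = 8.70e-05 from limma). NCK2, an adaptor of the actin cytoskeleton, was lower at -1.07 and PIK3R2, a regulatory subunit of phosphoinositide 3-kinase, at -0.95. GRB7 was higher at 1.67, the docking protein GAB2 at 1.61 and SH2B1 at 1.11. The probe of GAB2 passed the background flag on 3 of 4 siControl arrays.

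**Figure D4:**
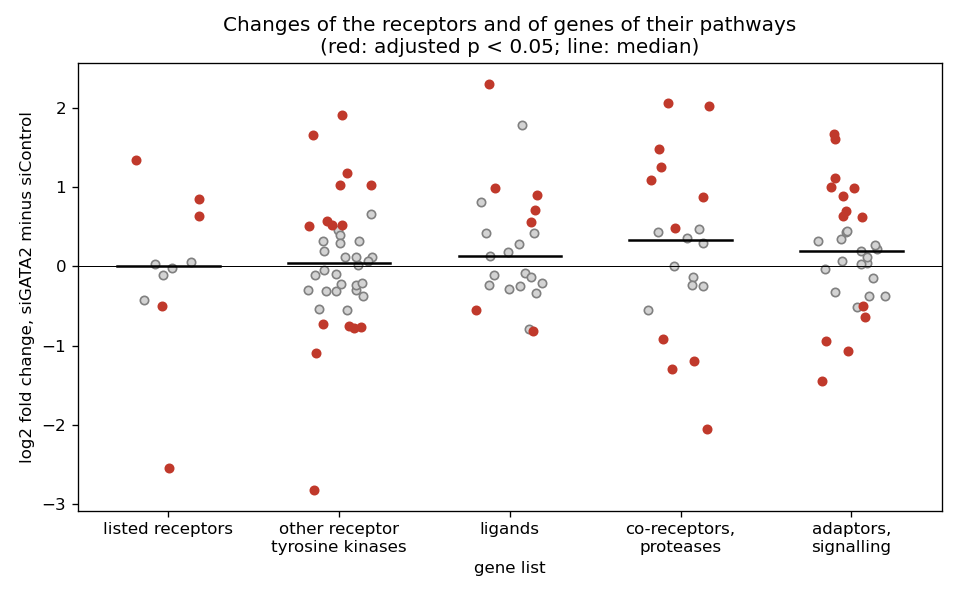
Log2 fold change (vertical axis, siGATA2 minus siControl) of the 10 receptors and of the genes of each pathway list that were tested, each point 1 gene, red where the adjusted p from limma was under 0.05, with the median of a list as a line. The medians lie between 0.0038 for the 10 receptors and 0.33 for co-receptors and proteases.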

How the data were processed

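The receptors, gene lists and alternatives were chosen with earlier results of these data known. The authors deposited the intensity of every spot from Agilent Feature Extraction 11.0.1.1 and a matrix of log2 values. Per the file headers, flags of outlier spots, saturation and signal well above background were given as other columns, and no used spot was saturated. According to the methods, GeneSpring was used for quantile normalization. The deposited log2 values correlated best with their own array, at 0.985 or more across probes, with a median of 7.47 on each array.

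Here log2 processed signals were averaged over unflagged spots, or over all spots of a probe where each was flagged, and quantile-normalized over 8 arrays. A probe counted as well above background with at least 0.5 of its spots so flagged. Of 42405 probes 26360 were named through RefSeq (GRCh38.p14). Probes without annotation or with a mean log2 signal under 3 were removed, which left 35546 probes, and the brightest stood for each of 28876 genes. Of these genes 17870 had a symbol. Groups were compared with limma 3.58.1 in R 4.3.3 with Benjamini-Hochberg adjustment and a threshold of 0.05, whereas the methods used a t-test. The code was tested on simulated data. The genes named are GATA2, the 10 receptors, the 3 called genes of each list with the largest fall and rise with a probe flagged above background throughout 1 group or both, and the 3 genes nearest to MET and to IGF1R. MST1, SPINT2 and the stromal markers were named after their values were seen. The array design in the headers differs from that in the methods. Arrays have no read depth. Tumour cohorts and other assays of the study were not analysed here.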

Additional observations from a re-analysis of the deposited data

Results flagged for a closer look

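Among 76 groups of 4 values examined, 1 array stood apart in 3, by a gap to its nearest neighbour larger, as a share of the range of the group, than the critical value of the Dixon test allows, where chance gives about 1 in 20. In log2 signal, DDR1 gave 11.82 for siControl array 1 against 11.73 to 11.74 for the remaining siControl arrays, a gap of 0.847 of a narrow range. ERBB2 was 13.82 on siControl array 1 and 12.85 to 12.96 on the others, a gap of 0.885. PIK3R2 was 16.18 on siControl array 4 and 16.48 to 16.50 on the others, a gap of 0.932.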

How the results depend on the processing

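MET was called lower under all 24 alternatives, with log2 fold changes from -2.98 to -1.85. DDR1 was called higher under 23, INSR under 22, FGFR4 lower under 20 and MST1R higher under 11, and no receptor called in the main setting changed sign. Of the receptors, 2 were lower and 3 higher. With E1A spike-in scaling 1 was lower and 0 were higher, with a fold of at least 2 required 1 and 1, and with spike-in scaling without siControl array 1, chosen after the data were seen, 1 was lower. With an array left out 1 to 3 were lower and 2 to 3 higher, the 1 being without siControl array 4. FGFR1 was called higher, at 0.61, and AXL lower, at -0.42, with array weights alone. The fall of ROR1 reversed to 0.0813, uncalled, when its probes were averaged. Of all genes 4060 were lower and 3558 higher, but 1874 and 139 with spike-in scaling and 7522 and 8042 with array weights. The title letters as a block gave 7172 higher, slide row 2178, spike-in scaling without siControl array 1 1764, and a fold of at least 2 gave 2046 lower and 1303 higher. Further receptor tyrosine kinases ranged from 2 to 10 lower and 0 to 11 higher, ligands from 0 to 5 and 1 to 10, co-receptors and proteases from 1 to 6 and 0 to 10, and adaptors from 2 to 9 and 0 to 15. Apart from the fold threshold the cause was not tested.

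Deviations of same-numbered arrays correlated at 0.52, -0.30, 0.16 and 0.18. Arrays of unlike number were not compared, so these values cannot decide whether the replicate numbers pair the arrays. With the replicate block 2 receptors were lower and 3 higher, and 3665 and 3331 of all genes, and no receptor changed its call. Signal over background, lowest on siControl arrays 1 and 3, limits the dim probes of MST1R, FGFR2, FGFR3 and DDR1.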
